A study of Mus musculus with 2 samples.

Results

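The 10 genes that encode the cyclic AMP response element binding (CREB) family and its coactivators were followed in MC3T3-E1, a line of osteoblastic cells that was established from mouse skull bone. The PTH sample was given parathyroid hormone at 10 nM for 1 h and the other was left untreated for the same time. The genes were chosen by name: Creb1, Crem, Atf1, Crtc1, Crtc2, Crtc3, Crebbp, Ep300, Cited2 and Cited4, each 1 row of the 55487 rows in a table of RNA sequencing counts. Of these, 9 had a total of 20 or more counts over both libraries and were compared, and Cited4 stood at 0 in both. The cells had been plated a day before treatment in medium with serum, and both groups share that handling. There was 1 library per group, so differences could not be checked against replicates and no test was possible. The libraries held 70036872 counts (PTH) and 66302211 counts (untreated).

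PTH acts on osteoblasts through a receptor that raises cyclic AMP and so activates protein kinase A. The kinase phosphorylates CREB1, CREM and ATF1, 3 related factors that bind the cyclic AMP response element (CRE). The phosphorylated factors recruit the histone acetyltransferases CBP (Crebbp) and p300 (Ep300), and the CRTC coactivators enter the nucleus when salt-inducible kinases are held back. CITED proteins do not bind DNA themselves and attach to CBP and p300. These steps act largely on proteins, which RNA counts do not measure.

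Most of the compared members had similar RNA levels in both libraries. Crem was 12.2-fold higher in the PTH library and Cited2 3.05-fold lower, whereas the other 7 compared members lay between ratios of 0.825 and 1.13. Among all 16408 rows compared, 5.39% had more reads and 3.54% fewer by the same rule, which asks that the whole 95% counting interval of the ratio lie beyond 1.5-fold. By that rule 1 member had more reads, 1 had fewer and 7 were neither. With so few genes these counts are not read as set apart from the shares over all rows. The members' median log2 ratio was -0.09, beside 0.00 over all rows compared.

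The DNA element these factors bind was looked up first in the genes around them. The full CRE was searched as TGACGTCA and its half-site as TGACG on either strand (CGTCA on the other), so each full CRE also counts as 2 overlapping half-sites. The windows were the 250 bases before each RefSeq start (GRCm38.p6), available for 8 of the 10 members and not for Crem and Crtc2. Among all 32851 windows, 17.8% held a half-site and 1.55% a full CRE. Counted by gene, as for the members below, these were 19.8% and 1.77% of 27025 genes, and 30.1% and 3.02% of the 10745 genes that were compared and had a window. Of the 8 members Atf1 alone held a half-site (12.5%), and none held a full CRE, so with 8 genes their share is not read as set apart from these. The windows of Cited2, the member with fewer reads (chr10:17722978-17723217, plus strand), and of Atf1 (chr15:100227609-100227818, plus strand) are printed for contrast up to the first annotated exon, with half-sites in capitals and all else in lower case.
Cited2: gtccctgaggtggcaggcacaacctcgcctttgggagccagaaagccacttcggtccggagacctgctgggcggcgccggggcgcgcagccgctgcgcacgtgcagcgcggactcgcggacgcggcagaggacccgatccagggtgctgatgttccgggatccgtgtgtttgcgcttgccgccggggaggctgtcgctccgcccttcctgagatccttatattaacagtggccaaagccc
Atf1: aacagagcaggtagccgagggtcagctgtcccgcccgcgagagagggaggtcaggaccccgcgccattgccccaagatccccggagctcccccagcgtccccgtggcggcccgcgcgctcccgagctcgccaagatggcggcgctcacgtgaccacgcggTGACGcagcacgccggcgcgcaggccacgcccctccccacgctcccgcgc

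Of 28 listed CREB target genes 22 had a window, and 18 of these (81.8%) held a half-site, 4 of them a full CRE. Split by reads, a half-site stood in 13 of 16 targets with more reads (81.2%) and in 5 of the 6 others (83.3%), and a full CRE in 2 of 16 (12.5%) and 2 of 6 (33.3%). Those 2 others were Dio2, with 16 counts in the PTH library and 12 in the untreated library, and Sst, the somatostatin gene, with 0 with PTH and 10 untreated. Targets enter such a list partly because CREs were found there, so this share is a description of the list. Areg, an EGF receptor ligand (chr5:91139518-91139565, plus strand), and Dusp1, a MAP kinase phosphatase (chr17:26508588-26508635, minus strand), are the targets with more reads whose window held the full CRE, shown in capitals.
Areg: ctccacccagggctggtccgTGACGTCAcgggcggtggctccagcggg
Dusp1: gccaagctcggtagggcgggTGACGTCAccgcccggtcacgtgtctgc
The orphan nuclear receptor genes Nr4a1 (chr15:101266603-101266820, plus strand), Nr4a2 (chr2:57124100-57124213, minus strand) and Nr4a3 (chr4:48045064-48045152, plus strand) held the most half-sites, 4 in each window, and are shown to compare their spacing. The stretch of Nr4a3 stops at an annotated exon and shows 3 of its 4.
Nr4a1: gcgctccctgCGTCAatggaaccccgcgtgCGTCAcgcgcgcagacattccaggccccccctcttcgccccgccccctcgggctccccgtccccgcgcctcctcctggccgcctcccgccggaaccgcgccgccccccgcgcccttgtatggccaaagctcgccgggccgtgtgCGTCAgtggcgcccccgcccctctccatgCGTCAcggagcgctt
Nr4a2: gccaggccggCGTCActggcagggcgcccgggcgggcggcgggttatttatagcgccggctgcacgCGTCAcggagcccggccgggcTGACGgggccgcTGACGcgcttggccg
Nr4a3: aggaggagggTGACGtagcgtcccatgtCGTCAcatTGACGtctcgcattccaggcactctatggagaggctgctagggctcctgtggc
Among compared genes with a window, the half-site stood in 30.9% of those with more reads (146 of 473). It stood in 24.8% of those with fewer (81 of 326) and 30.3% of those with neither (3009 of 9947). A full CRE stood in 3.59%, 3.37% and 2.98% of the same genes. No test was made of these shares, and a gene with several starts had several windows. Rows with more, fewer and neither numbered 884, 581 and 14943, so many had no window and are left out of these shares.

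**Figure D1:**
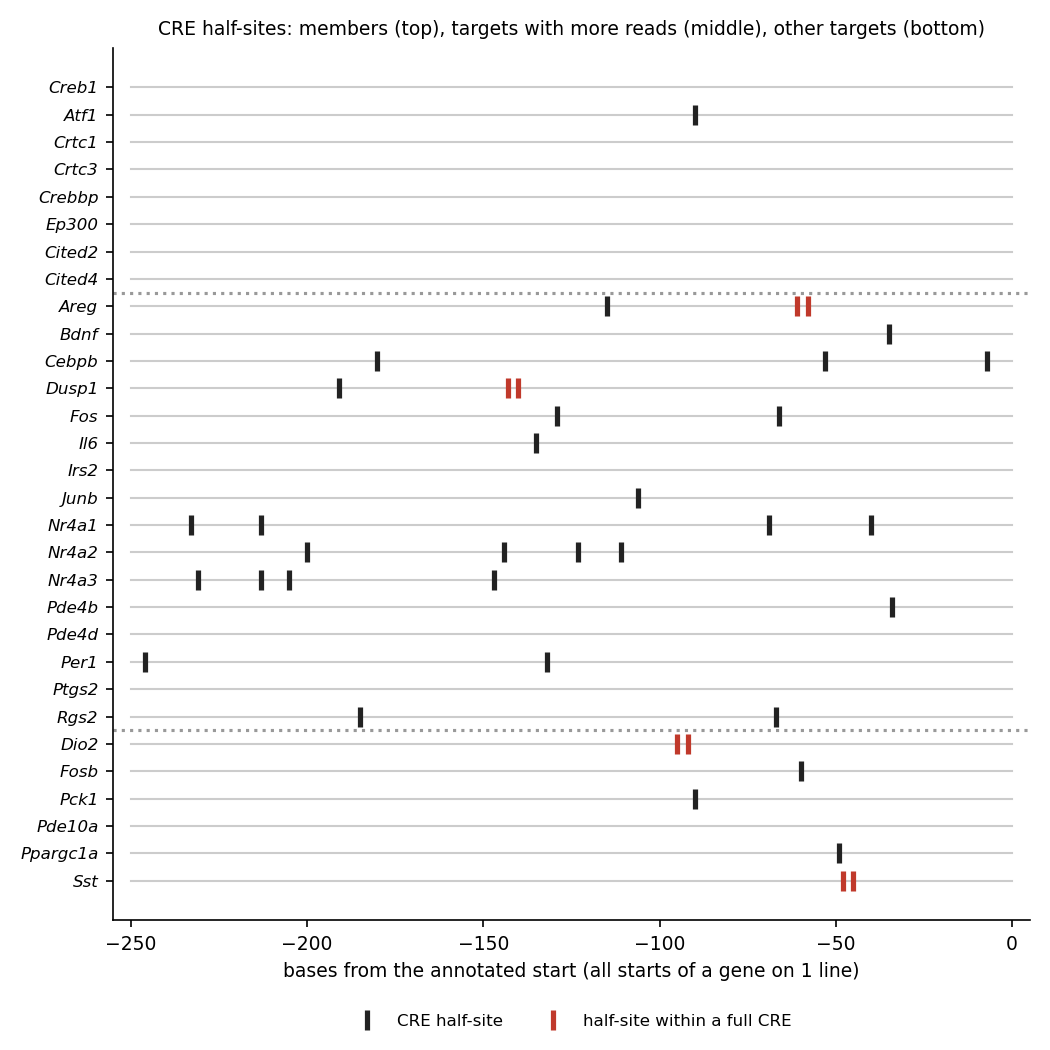
CRE half-sites in the 250 bases before the annotated starts of 8 members (top), of 16 target genes with more reads in the PTH library (middle) and of the 6 other target genes with a window (bottom), divided by dotted lines; the x axis is distance from the start in bases and red ticks belong to a full CRE. Atf1 carries the single tick among the members, while 13 of the 16 targets with more reads and 5 of the 6 others carry at least 1. The others include Pck1, Ppargc1a and Sst, which had too few counts to be compared.

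Crem encodes both activators and repressors of CRE-driven transcription, and an internal promoter of the gene gives ICER, a short repressor known to be induced by cyclic AMP. The gene (ENSMUSG00000063889, protein coding) lies at chr18:3266048-3337748 on the minus strand in GRCm38. Crem had 2503 counts in the PTH library and 199 in the untreated library, or 36.2 and 2.96 CPM (counts scaled by library size). The ratio was 12.2 (95% interval of 10.6 to 14.2). The intervals cover counting error only, compare these libraries rather than the conditions, and take each read as an independent molecule. When rows were ranked by the lower bound of that interval, Crem stood 31st of 16408. In bulk RNA a change in the share of cells that express a gene and a change in RNA per cell cannot be told apart.

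The Crem row adds up every isoform. GENCODE M21 lists 39 Crem transcripts in 6 groups of start sites more than 1 kb apart. The last group, 56.0 kb downstream of the first, holds 7 protein-coding transcripts of 436 to 1015 bases with 3 or 4 exons. Which start the added reads came from cannot be read from a count per gene. Exons of another gene on the opposite strand, Gm6225, cover 8.01% of Crem's exonic length near its first starts. Gm6225 had 209 counts in the PTH library and 38 in the untreated library, a ratio of 5.34 (3.77 to 7.76). The sources used here do not say if the counting was strand-aware. The part of shared reads in the Crem ratio was not tested.

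Creb1 and Atf1, the constitutive CRE-binding activators, were near a ratio of 1. Creb1 (chr1:64532645-64604548, plus strand) had 3741 counts in the PTH library and 4086 in the untreated library, a ratio of 0.889 (0.850 to 0.930). Atf1 (chr15:100227819-100261244, plus strand) had 5004 and 5276 counts in the PTH and untreated libraries, a ratio of 0.921 (0.886 to 0.958). Both intervals lie below 1 but well inside 1.5-fold. Atf1-ps, a pseudogene of Atf1 with its own row, had 17 counts in the PTH library and 8 in the untreated library.

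The 3 factors therefore made up a different mix of reads. Crem took 22.3% of their summed counts in the PTH library (exact binomial interval 21.5 to 23.0%) and 2.08% in the untreated library (1.80 to 2.39%). Creb1 took 33.3% with PTH and 42.7% untreated, and Atf1 44.5% with PTH and 55.2% untreated. These shares of reads depend on gene length. Weighted by exonic length, Crem's share was 18.2% in the PTH library and 1.64% in the untreated library. The same weighting put Creb1 at 11.7% with PTH and 14.5% untreated, and Atf1 at 70.1% with PTH and 83.9% untreated. The summed scaled level of the 3 genes was 163 CPM with PTH and 142 CPM untreated, a ratio of 1.14 (1.11 to 1.17), so the sum differed far less than Crem did.

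**Figure D2:**
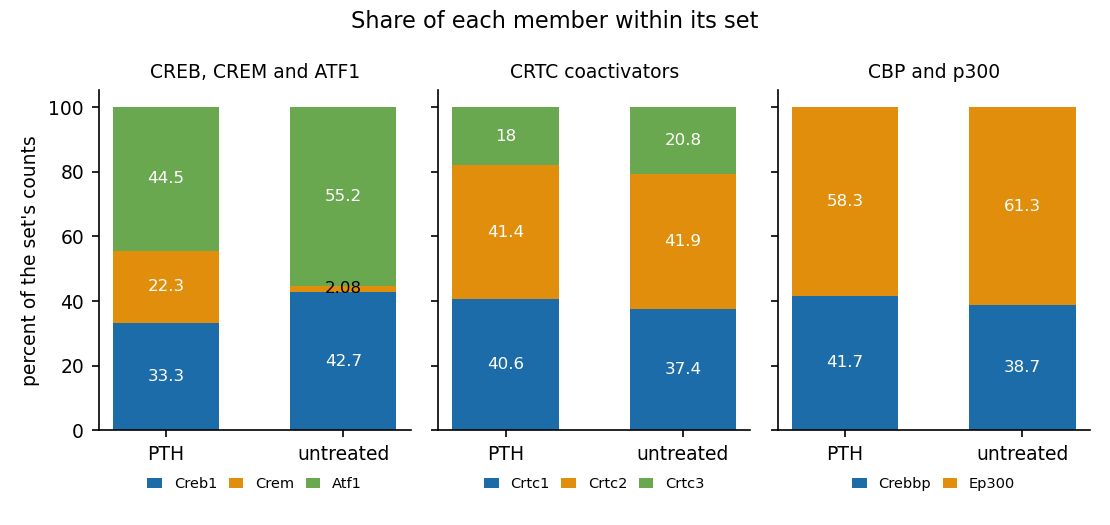
Percent of counts that each member took within 3 sets of related genes (y axis), PTH library left and untreated library right in each panel, 1 library per bar. Crem takes 22.3% in the PTH library against 2.08% untreated, and the shares of the CRTC genes and of Crebbp and Ep300 differ between libraries by less than 5 points.

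The CRTC genes encode coactivators that bind the CREB leucine zipper region, and none of the 3 was past the rule. Crtc1 (chr8:70382355-70439579, minus strand) had 2295 counts in the PTH library and 2156 in the untreated library, a ratio of 1.03 (0.974 to 1.10). Crtc2 (chr3:90254163-90264125, plus strand), the form best known from the liver response to glucagon, had 2341 counts with PTH and 2415 untreated, a ratio of 0.941 (0.889 to 0.997). Crtc3 (chr7:80586627-80688877, minus strand) had 1018 counts with PTH and 1198 untreated, a ratio of 0.825 (0.758 to 0.898). Crtc3 had the lowest ratio of the 7 members that were not past the rule. Even so, 20.3% of the 9549 rows with at least 1000 counts lay farther from 1 on the log2 scale than Crtc3 did. Summed over the 3 genes the ratio was 0.952 (0.917 to 0.987).

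CBP and p300, the paralogous acetyltransferases that bind phosphorylated CREB, were likewise close to 1. Crebbp (chr16:4081328-4213997, minus strand) had 3526 counts in the PTH library and 3017 in the untreated library, a ratio of 1.13 (1.08 to 1.19). Ep300 (chr15:81585351-81652077, plus strand) had 4929 counts with PTH and 4787 untreated, a ratio of 1.00 (0.961 to 1.04). The CBP share of their summed counts was 41.7% with PTH (40.6 to 42.8%) and 38.7% untreated (37.6 to 39.8%). These intervals do not overlap, and they leave out any variation between cultures.

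Cited2 encodes a small nuclear protein that binds the TAZ1 domain of CBP and p300, where it competes with HIF1A, and that coactivates AP-2 factors. The gene (ENSMUSG00000039910) lies at chr10:17723218-17725674 on the plus strand and shares no exon with another annotated gene. Cited2 had 7962 counts in the PTH library and 23559 in the untreated library, or 115 and 351 CPM. The ratio was 0.328 (0.320 to 0.337), a level 3.05-fold lower (2.97 to 3.13) in the PTH library. By the upper bound of the interval it ranked 124th from the lowest of 16408 rows. With the interval widened for an assumed coefficient of variation of 0.3 between cultures it ran from 0.143 to 0.754, and Cited2 was no longer past the rule, while Crem still was (5.24 to 28.3). With intervals so widened, 1.96% of all compared rows had more reads and 1.08% fewer.

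Per kilobase of exon, Cited2 was the most abundant member in both libraries, at 46.9 CPM per kb with PTH and 143 CPM per kb untreated. Set against the summed level of Crebbp and Ep300, the Cited2 level was 5.35 times as high in the PTH library and 17.2 times as high in the untreated library. With the longest transcript as length in place of all exons, these quotients were 3.93 with PTH and 12.5 untreated. Cited4, which encodes a related CBP and p300 binding protein, was listed at 0 counts in both libraries, with 1 exon of 1249 bases at chr4:120666572-120667820. Sampling alone would allow up to 3 counts, or 0.0434 CPM with PTH and 0.0447 CPM untreated. The table holds 598 rows at 0 in 1 library and 10 to 29 counts in the other, so a listed 0 is not read as absence. Cited1, the third CITED gene measured, went the other way from Cited2, with 192 counts in the PTH library and 8 in the untreated library, a ratio of 23.3 (11.6 to 54.8). It remained far below Cited2 per length, at 1.58 CPM per kb with PTH and 0.0679 CPM per kb untreated.

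**Figure D3:**
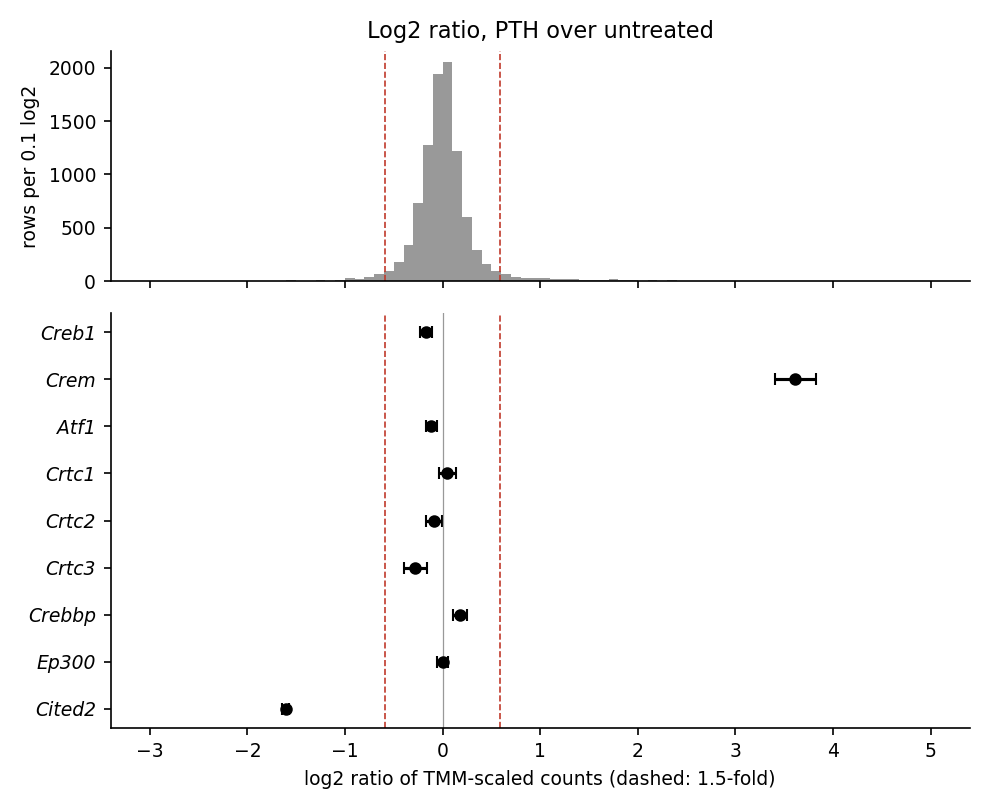
Lower panel, log2 ratio of TMM-scaled counts (PTH over untreated) for the 9 compared members with 95% counting intervals; upper panel, the same ratio for the 9549 rows with at least 1000 counts, drawn within -3 to 5 with rows beyond in the end bins. Crem at 3.61 and Cited2 at -1.61 lie outside the dashed 1.5-fold lines and the other 7 members lie between -0.28 and 0.18.

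The central 95% of rows with at least 1000 counts ran from a log2 ratio of -0.56 to 0.85, and all 9 compared members belong to this class of counts. The 7 members other than Crem and Cited2 lay inside that band. A larger absolute log2 ratio than that of Crem was found in 0.105% of these rows, and than that of Cited2 in 1.13%. The rows nearest to Crem in ratio, of 9159 named rows with at least 1000 counts, were Gzmb at 11.7, Nr4a2 at 13.6 and Usp2 at 13.6. Gzmb encodes granzyme B, a serine protease, and Usp2 a ubiquitin peptidase. Nearest to Cited2 were Irf2bpl at 0.328, Lfng, a Notch-modifying glycosyltransferase, at 0.326 and Lurap1l at 0.333. Likeness here is the distance in log2 ratio over 2 libraries, and many genes can share a ratio.

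Apart from Crem, the order of the members by level per kilobase was the same in both libraries. In the PTH library it ran from Cited2 (46.9 CPM per kb) through Atf1 (23.7), Crtc2 (8.27), Crem (6.14), Ep300 (5.00), Creb1 (3.94), Crebbp (3.77) and Crtc1 (2.97) to Crtc3 (1.5). In the untreated library it ran from Cited2 (143 CPM per kb) through Atf1 (25.7), Crtc2 (8.79), Ep300 (5.00), Creb1 (4.43), Crebbp (3.32), Crtc1 (2.87) and Crtc3 (1.81) to Crem (0.503). Crem thus stood between Crtc2 and Ep300 with PTH and was the lowest of the detected members untreated. Creb1 and Crebbp in the PTH library were the one pair of neighbours whose counting intervals overlapped. Relative to Creb1, the Crem level per kilobase was 1.56 with PTH and 0.114 untreated. Against all compared rows, Crem was above 61.3% of them with PTH and above 23.0% untreated, and Cited2 above 93.9% with PTH and above 98.3% untreated. Isoforms shorter than the union of exons make such levels too low, for Crem and for other members such as Creb1, Crtc3 and Ep300. By the longest transcript as length, Crem relative to Creb1 was 1.91 with PTH and 0.139 untreated.

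**Figure D4:**
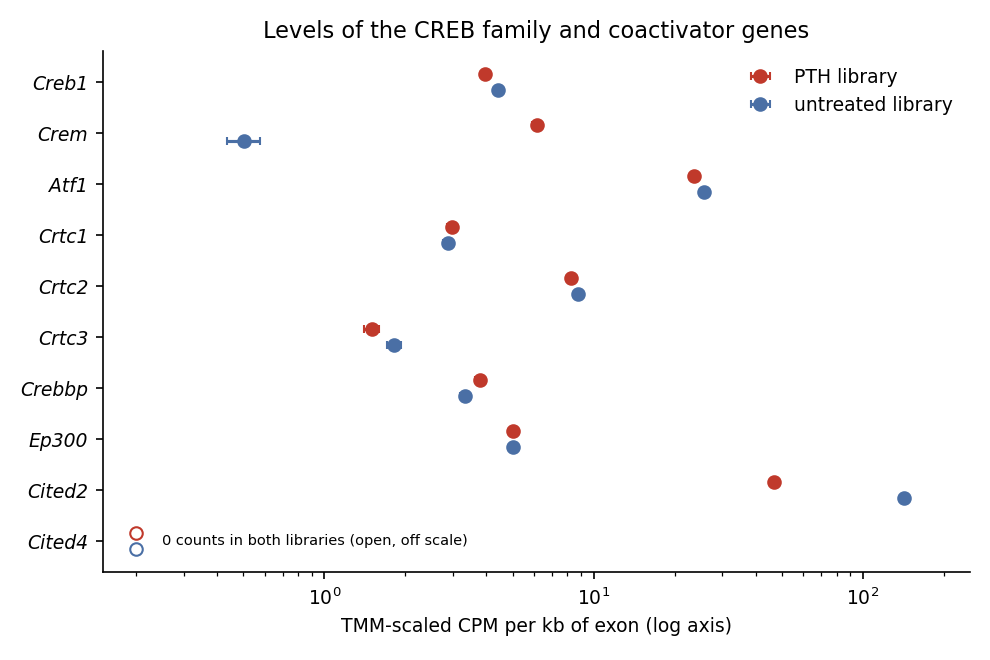
TMM-scaled CPM per kb of exon on a log axis for the 10 members, PTH library (red, upper point) and untreated library (blue, lower point), with 95% Poisson intervals where wider than the point. Crem (6.14 against 0.503) and Cited2 (46.9 against 143) show the wide gaps, and Cited4 is drawn open at the left edge because it had 0 counts.

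Other genes of the pathway were read against the same background shares. Of 16 relatives with a related basic leucine zipper or name, 2 had fewer reads, none had more and 14 were neither. Their median log2 ratio was -0.12. Atf3, a stress-induced factor, had 207 counts with PTH and 977 untreated, a ratio of 0.206 (0.176 to 0.239). Creb5 had 683 and 1139 counts in the PTH and untreated libraries, a ratio of 0.582 (0.529 to 0.641). Among these 19 CREB and ATF genes, counting Creb1 and Atf1, Crem alone had more reads. Over all compared rows 5.39% had more reads and 3.54% fewer. With so few genes the counts are not read as set apart from those shares.

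The genes for CREB kinases and for regulators of CRTC proteins were mostly not past the rule. None of 11 kinases of the CREB activation site was past the rule, with ratios from 0.850 to 1.18, among them Mapkapk2 at 1.01 and Rps6ka4 at 1.02. Of 16 CRTC regulators 15 were neither and 1 had more reads, and their median was 0.08. That gene was Sik1, a salt-inducible kinase that retains CRTC proteins in the cytoplasm, with 32290 counts with PTH and 4072 untreated, a ratio of 7.70 (7.45 to 7.96). Its relatives Sik2 and Sik3 were at 0.868 and 1.08. None of 12 other acetyltransferase and nuclear receptor cofactor genes was past the rule, with ratios from 0.800 to 1.10, among them the corepressor gene Ncor1 at 1.03.

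Genes linked to the TAZ1 domain and to HIF were counted as well, since Cited2 competes with HIF proteins there. Of 9 compared CITED, AP-2 and HIF pathway genes 2 had more reads, Cited1 and Tfap2a, and 7 were neither. Tfap2a, an AP-2 factor, had 1492 counts with PTH and 602 untreated, a ratio of 2.41 (2.19 to 2.65), and 14.6% of its exonic length overlaps the opposite strand. Hif1a was at 0.871 (0.846 to 0.896). Of 17 compared HIF target genes 5 had more reads and 12 were neither, where 5.39% of all compared rows had more reads. The median log2 ratio of the HIF targets was -0.03, and their list was drawn up with earlier results known. The leading members were Ddit4, an inhibitor of mTORC1, at 8.51 (7.94 to 9.13), Vegfa, an angiogenic factor, at 5.17 (5.07 to 5.27) and Pfkfb4, a glycolytic regulator, at 3.62 (3.29 to 3.98). Hk2 at 2.70 and Mxi1 at 2.51 were also past the rule. The 12 that were neither ran from 0.721 to 1.28. Among them Egln3, Pdk1, Bnip3 and Slc2a1 were at 0.818, 0.770, 0.917 and 0.924, and Ndrg1, Ldha and Pgk1 at 1.28, 1.17 and 1.13. Of the 17 log2 ratios, 8 were above 0 and 9 below. A link between the Cited2 level and these genes was not tested.

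Of 25 compared CREB target genes, 20 had more reads, 5 were neither and none had fewer. Over all compared rows 5.39% had more reads and 3.54% fewer. The 20 include Crem and also Sik1, which was counted above among the CRTC regulators. The median log2 ratio was 1.70. Rgs2, which limits G protein signalling, had 6334 counts with PTH and 123 untreated, a ratio of 50.0 (41.8 to 60.3). Vgf, a neuropeptide precursor, had 338 and 7 counts, and Il6, a cytokine, 1237 and 38 counts in the PTH and untreated libraries. The 5 that were neither were Fosb (0.692), Per2 (0.610), Pde10a (0.931), Id1 (1.45) and Dio2 (1.29). The list was drawn up with these results known and does not bear independently on the direction.

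**Figure D5:**
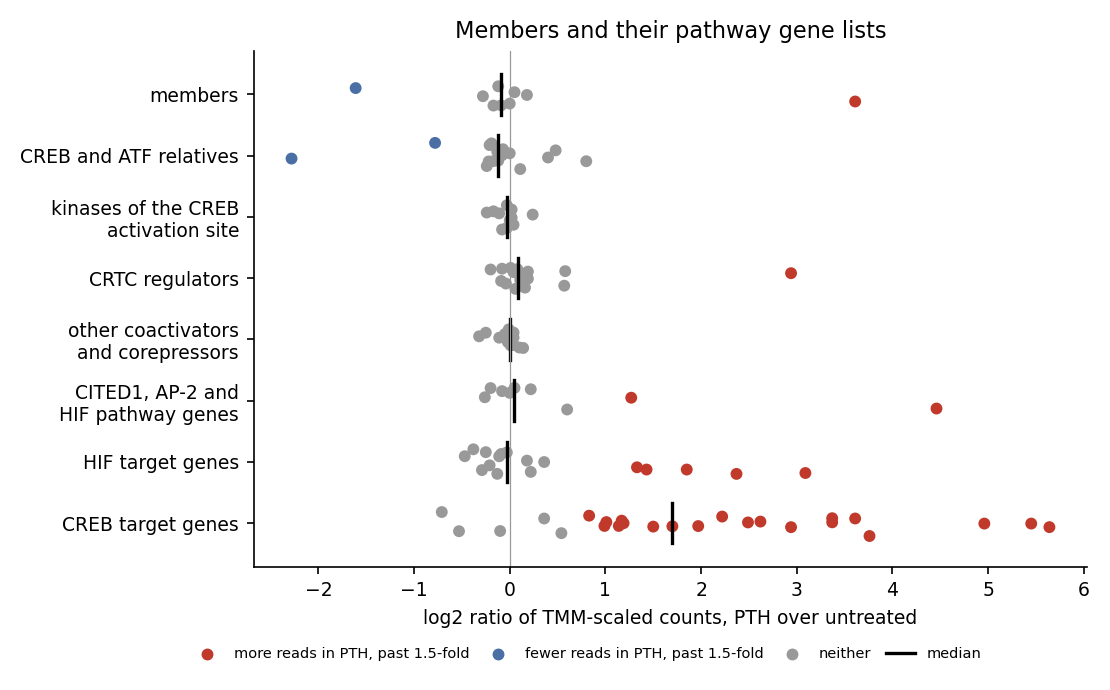
Log2 ratio of TMM-scaled counts (PTH over untreated, x axis) for the members and 7 pathway lists, 1 point per compared gene and a black bar at each median. The CREB target genes lie mostly to the right with a median of 1.70, and the medians of the members and the other lists lie between -0.12 and 0.08. Crem is drawn under both the members and the CREB targets, and Sik1 under both the CRTC regulators and the CREB targets.

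All 10 osteoblast markers checked had enough counts to compare, with summed levels of 8704 CPM per kb in the PTH library and 8212 CPM per kb in the untreated library. These sums were carried by Col1a1, Col1a2 and Sparc, and the marker Bglap had 87 counts with PTH and 57 untreated. Sp7 was the one osteoblast marker past the rule, with 1974 counts with PTH and 4583 untreated. Of 5 markers each, 2 chondrocyte, 1 adipocyte, 2 muscle, no endothelial and 2 macrophage or osteoclast markers could be compared. At 0 counts in both libraries were 3 chondrocyte markers (Acan, Col10a1 and Matn1), 4 adipocyte (Adipoq, Cfd, Lep and Plin1), 2 muscle (Ckm and Myod1), 3 endothelial (Cdh5, Kdr and Tie1) and 2 macrophage or osteoclast markers (Adgre1 and Ptprc), with the limit on a listed 0 given for Cited4. Summed levels were 60.7 CPM per kb with PTH and 45.2 untreated for the chondrocyte markers, carried by Col2a1, and 62.2 and 56.0 for the macrophage and osteoclast markers, carried by Ctsk. The muscle sum was 0.616 CPM per kb with PTH and 1.48 untreated, and its marker Acta1, skeletal muscle actin, was past the rule with 28 counts with PTH and 124 untreated, a ratio of 0.219 (0.140 to 0.333). The adipocyte sum, from Fabp4, was 0.145 CPM per kb with PTH and 0.113 untreated, and the endothelial sum 0.0332 with PTH and 0.0215 untreated. The part of such cells in the member ratios was not tested.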

How the data were processed

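RNA from MC3T3-E1 cells was sequenced in 1 PTH and 1 untreated library. The authors deposited 1 table of whole-number read counts per gene, not normalised. HISAT2 and the mm10 build are named in the submitters' processing notes. The sources used here do not give the counting tool, annotation or strand use, so rows that share exons or have antisense partners are uncertain. Here counts were scaled by TMM (edgeR 4.0.16, R 4.3.3) over the 16408 rows with a total of 20 or more. With 1 library per group the quasi-likelihood test of edgeR had no residual degrees of freedom and was not run. Scaled counts were compared as a ratio, PTH over untreated, with a 95% exact conditional interval (Python 3.11.15, scipy 1.17.1). The interval was run on simulated counts with counting error only, which cannot speak to variation between cultures. Log2 ratios add 0.5 count to each library. Coordinates and lengths come from GENCODE M21 (GRCm38, also called mm10), which holds 55227 of the row identifiers; promoters come from RefSeq. Alternatives were total counts, DESeq2 1.42.0 size factors, upper-quartile factors, other filters and fold limits, and intervals widened by a normal approximation. The members, lists and rule were chosen with earlier results of these data known. The text names all members, per list up to 3 genes past the rule by interval bound (otherwise the 2 with most counts), and the 3 rows nearest in ratio to each member past it. A gene named by this rule is not reported here. Other genes named were picked after their values were seen.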

Additional observations from a re-analysis of the deposited data

How the results depend on the processing

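No paired analysis was possible because each group has 1 library, and no replicate could be left out. Under 3 other scalings none of the 27 member ratios left its counting interval, with ranges of 11.9 to 12.2 for Crem and 0.320 to 0.328 for Cited2, and the members' median log2 ratio ran from -0.124 to -0.087. By the rule, 1 member with more and 1 with fewer reads were counted under every scaling, filter and fold limit tried and with assumed coefficients of variation of 0.1 and 0.2. With 0.3 the count with fewer reads was 0. The length of the longest transcript in place of all exons switched 2 of 72 pairs in the order by level, Crem above Crtc2 with PTH and Crtc3 above Crtc1 untreated. Over all rows, more and fewer reads were called for 884 and 581 rows. The counts were 1386 and 983 with a minimum total of 1, 543 and 307 with 100, 1495 and 1213 with a lower fold limit, 517 and 262 with a limit of 2, 474 and 267 with an assumed coefficient of 0.2, and 322 and 177 with 0.3. These shifts follow from how each setting is built, with more or fewer rows, another limit or a wider interval. Low counts leave the Cited1 ratio with a wide interval, the reason for the 0 of Cited4 is not known, and variation between cultures was not measured.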
